A study of Mus musculus with 4 samples.

Results

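The miR-199 and miR-214 miRNAs were followed in small intestinal epithelial exosomes (SI-Exos) and in serum exosomes from male C57BL/6J mice aged 3 or 18 months. The members were chosen by name: mmu-miR-199a-3p, mmu-miR-199b-3p, mmu-miR-199a-5p, mmu-miR-214-3p and mmu-miR-214-5p, written without the species prefix from here on. All 5 names had a row in the serum table, which held 611 miRNAs, and 4 had a row in the SI-Exos table, which held 373. Both tables together held 668 names. Because miR-199a-3p and miR-199b-3p are the same mature sequence, their reads were added and are called miR-199a/b-3p, which leaves 4 distinct sequences. Each of the 4 groups, 3m-SI-Exos, 18m-SI-Exos, 3m-serum and 18m-serum, was 1 small RNA library. The labels do not say how many mice gave the RNA of a library. The mice were on standard chow, and no group carried a transgene or a deletion. Exosomes were collected by ultracentrifugation, for the intestine after the epithelium had been released from the tissue by chelation.

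These miRNAs are known as miRNAs of mesenchymal cells, such as fibroblasts, pericytes and smooth muscle cells, and epithelial cells hold little of them. Mir199a-2 and Mir214 are processed from the long noncoding RNA Dnm3os, and their products are associated with fibroblast activation, fibrosis and skeletal development. A hairpin gives a 5p and a 3p arm, and the arm loaded into an Argonaute protein pairs with its targets mainly through the seed, bases 2 to 8. Which arm is kept can differ between tissues.

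The mature sequences are printed because 2 of the names cannot be told apart by sequence. Capitals mark the seed, and the sequences are written 5′ to 3′. Those of the 5 members are from RefSeq (GRCm38.p6) and that of miR-199b-5p, which is no member, is from the deposited annotation.
miR-199a-3p: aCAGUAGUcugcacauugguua
miR-199b-3p: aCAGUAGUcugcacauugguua
miR-199a-5p: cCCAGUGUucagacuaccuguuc
miR-199b-5p: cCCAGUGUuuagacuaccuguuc
miR-214-3p: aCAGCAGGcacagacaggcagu
miR-214-5p: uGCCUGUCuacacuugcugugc
The 4 distinct member sequences had 4 different seeds. The miR-199a-5p seed was also that of miR-199b-5p, which differs from it by C10U (counted from the 5′ end, with the base of miR-199a-5p first). In RefSeq the miR-214-3p seed was shared with miR-761, which is not analysed here. So the 3p arms of Mir199a and Mir199b give no information on their hairpin, whereas their 5p arms do.

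The hairpins show where these arms lie, and capitals mark the 5p arm and then the 3p arm. Mir199a-2 at chr1:162217814-162217923 and Mir214 at chr1:162223368-162223477 lie on the plus strand of chromosome 1 (GRCm38), with 5444 bases between them.
Mir199a-2: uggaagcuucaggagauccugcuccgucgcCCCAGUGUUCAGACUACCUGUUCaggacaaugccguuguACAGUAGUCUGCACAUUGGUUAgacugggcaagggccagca
Mir214: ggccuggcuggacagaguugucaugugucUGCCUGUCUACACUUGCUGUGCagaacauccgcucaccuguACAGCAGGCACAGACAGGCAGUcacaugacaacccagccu
Mir199b: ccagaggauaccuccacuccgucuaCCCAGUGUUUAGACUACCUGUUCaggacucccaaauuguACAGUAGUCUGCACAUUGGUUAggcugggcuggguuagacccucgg
In GENCODE, both hairpins of chromosome 1 lie in Dnm3os (chr1:162217623-162225550, plus strand), where an exon of 2 of its transcripts covers each hairpin whole. They are intronic and antisense with respect to Dnm3, a dynamin gene on the minus strand. Mir199b at chr2:32318460-32318569 (plus strand) lies antisense in an intron of Dnm1, and Mir199a-1 at chr9:21496495-21496564 (minus strand), the other source of miR-199a-5p, lies antisense in an intron of Dnm2. Reads of miR-199a-5p can come from Mir199a-1 or Mir199a-2, and only the miR-214 arms come from a single locus.

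The libraries held 212215 (3m-SI-Exos), 71353 (18m-SI-Exos), 832002 (3m-serum) and 778237 (18m-serum) miRNA reads. Levels are reads divided by this sum and scaled to CPM, and 1 read was 4.71, 14.0, 1.20 and 1.28 CPM. Of the library total behind the authors' RPM, miRNA reads made up 1.14% in 3m-SI-Exos, 0.411% in 18m-SI-Exos, 5.89% in 3m-serum and 5.31% in 18m-serum. All intervals are exact 95% intervals that cover counting error only. With 1 library per group there was no replicate check and no p-value, and every ratio compares 2 libraries and not ages as such. Less of a miRNA per exosome and fewer exosomes from a cell type cannot be told apart.

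The reads of miR-199a/b-3p were filed under different names in the libraries. In SI-Exos all 66 reads at 3 months and all 17 at 18 months stood under miR-199b-3p. In 3m-serum 203 reads stood under miR-199a-3p and 1 under miR-199b-3p, and in 18m-serum 7 stood under miR-199a-3p and 301 under miR-199b-3p. The name holding nearly all reads thus switched between the serum libraries, while the sequence is the same. Read by name, miR-199a-3p would have an 18-month to 3-month ratio of 0.0369 (0.0146 to 0.0774) and miR-199b-3p one of 322 (57.3 to 12752). Read by sequence, 204 reads stood against 308, a ratio of 1.61 (1.35 to 1.94). The sum is used from here on.

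**Figure D1:**
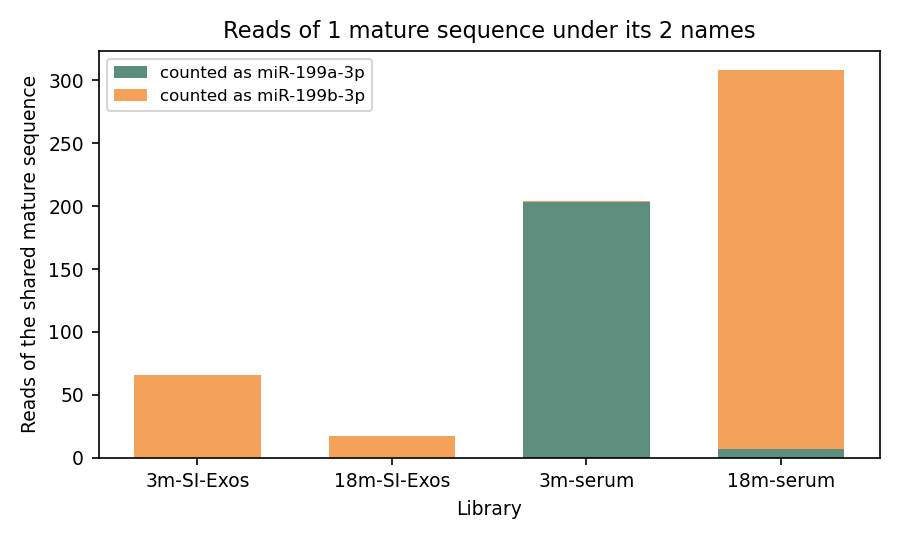
Reads of the shared mature sequence in each library (y axis), split by the name under which they were counted (green, miR-199a-3p; orange, miR-199b-3p). In 3m-serum 203 of 204 reads were miR-199a-3p, and in 18m-serum 301 of 308 were miR-199b-3p.

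miR-199a/b-3p, the arm usually most abundant in mesenchymal tissue, stood at 311 CPM (66 reads) in 3m-SI-Exos, 238 CPM (17) in 18m-SI-Exos, 245 CPM (204) in 3m-serum and 396 CPM (308) in 18m-serum. Its levels lay closest together of the 4 sequences, and it ranked 104, 111, 77 and 73 by level among the 326, 258, 485 and 495 miRNAs detected in these libraries. The interval of 18m-SI-Exos (139 to 381 CPM) overlapped those of the other 3 libraries.

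miR-199a-5p, the other arm of Mir199a, stood at 368 CPM (78 reads) in 3m-SI-Exos, 1626 CPM (116) in 18m-SI-Exos, 24.0 CPM (20) in 3m-serum and 15.4 CPM (12) in 18m-serum. It was highest in 18m-SI-Exos, where it ranked 53 of 258 detected miRNAs, and low in both serum libraries, whose intervals (14.7 to 37.1 and 7.97 to 26.9 CPM) overlapped.

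miR-214-3p, which is described as a regulator of fibroblast and bone cell differentiation, stood at 33.0 CPM (7 reads) in 3m-SI-Exos, 238 CPM (17) in 18m-SI-Exos, 8.41 CPM (7) in 3m-serum and 55.3 CPM (43) in 18m-serum. The 18-month library was above the 3-month library in both sources. miR-214-5p, its partner arm, was sparse, with 5, 10, 8 and 9 reads in the same order, or 23.6, 140, 9.62 and 11.6 CPM. Its intervals overlapped between the serum libraries (4.15 to 18.9 and 5.29 to 22.0 CPM).

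Together the members took 735 CPM (156 reads) in 3m-SI-Exos, 2242 CPM (160) in 18m-SI-Exos, 287 CPM (239) in 3m-serum and 478 CPM (372) in 18m-serum. In order of level these were 18m-SI-Exos, 3m-SI-Exos, 18m-serum and 3m-serum, with no overlap between the intervals of neighbours. The SI-Exos and serum tables were scaled separately, so the order across sources depends on the total used, as given below.

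**Figure D2:**
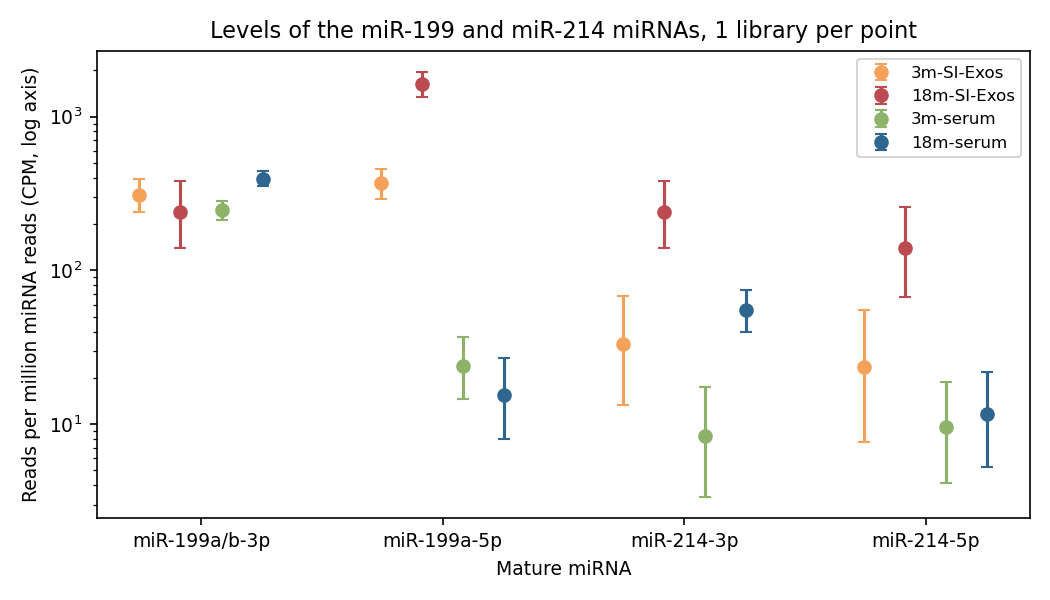
Level of each mature sequence in each library, in CPM of the miRNA reads on a log axis, with exact 95% counting intervals (each point is 1 library). miR-199a/b-3p lies between 238 and 396 CPM in all 4 libraries, whereas miR-199a-5p runs from 15.4 to 1626 CPM.

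In SI-Exos, miR-199a-5p, miR-214-3p and miR-214-5p were higher at 18 months than at 3 months, and miR-199a/b-3p was not called in either direction. The ratio of 18 to 3 months was 4.42 (3.29 to 5.97) for miR-199a-5p, 7.22 (2.85 to 20.6) for miR-214-3p and 5.95 (1.85 to 22.2) for miR-214-5p. For miR-199a/b-3p it was 0.766 (0.421 to 1.32), an interval that holds 1. To be measured, a miRNA needed 10 reads or more in either library of the pair, and to be called, a difference of 2-fold or more with an interval that leaves out 1. By this rule 3 of the 4 members were called higher and 0 lower, where of all 214 measured miRNAs 29.4% were called higher and 32.7% lower. Both miR-214 arms reached 10 reads only in the 18-month library, where they were high, so the count and the members' median log2 ratio of 2.32 (-0.45 over all measured miRNAs) are a description only. With at least 50 reads required, miR-199a-5p and miR-199a/b-3p were measured and 1 of the 2, miR-199a-5p, was called. The summed reads gave a ratio of 3.05 (2.43 to 3.83), which was 1.68 (1.13 to 2.46) without miR-199a-5p and 4.73 (3.61 to 6.22) without miR-199a/b-3p. The reads themselves hardly differed, 156 against 160, so the ratio rests on the smaller miRNA total of the 18-month library. On the authors' RPM, which is scaled to the larger total, the summed ratio was 1.10 (0.876 to 1.38). On RPM miR-214-3p was called higher (2.60, 1.03 to 7.42) and miR-199a/b-3p lower (0.276, 0.152 to 0.476), and the ratios of miR-199a-5p (1.59) and miR-214-5p (2.14, on 5 and 10 reads) were not called.

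In serum exosomes, miR-214-3p was higher at 18 months, by 6.57-fold (2.93 to 17.3), and no other member was called. The ratio was 1.61 (1.35 to 1.94) for miR-199a/b-3p, with an interval above 1 but under the 2-fold limit. It was 0.641 (0.286 to 1.38) for miR-199a-5p and 1.20 (0.412 to 3.58) for miR-214-5p, and the latter was under 10 reads in both libraries and not counted as measured. Thus 1 of the 3 measured members was called higher and 0 lower, against 25.6% and 18% of all 250 measured miRNAs. The called one, miR-214-3p, reached 10 reads only in the library where it was high, so this count too is a description only, and with at least 50 reads 0 of 1 was called. The median log2 ratio was 0.47 over all 4 members, with the unmeasured miR-214-5p included, and 0.38 over all measured miRNAs. miR-214-3p lay at the 97.2th percentile of all log2 ratios in serum and at the 86.0th in SI-Exos. In both sources it reached 10 reads only at 18 months, so these percentiles too are a description only. The summed reads of the members gave a ratio of 1.66 (1.41 to 1.97).

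**Figure D3:**
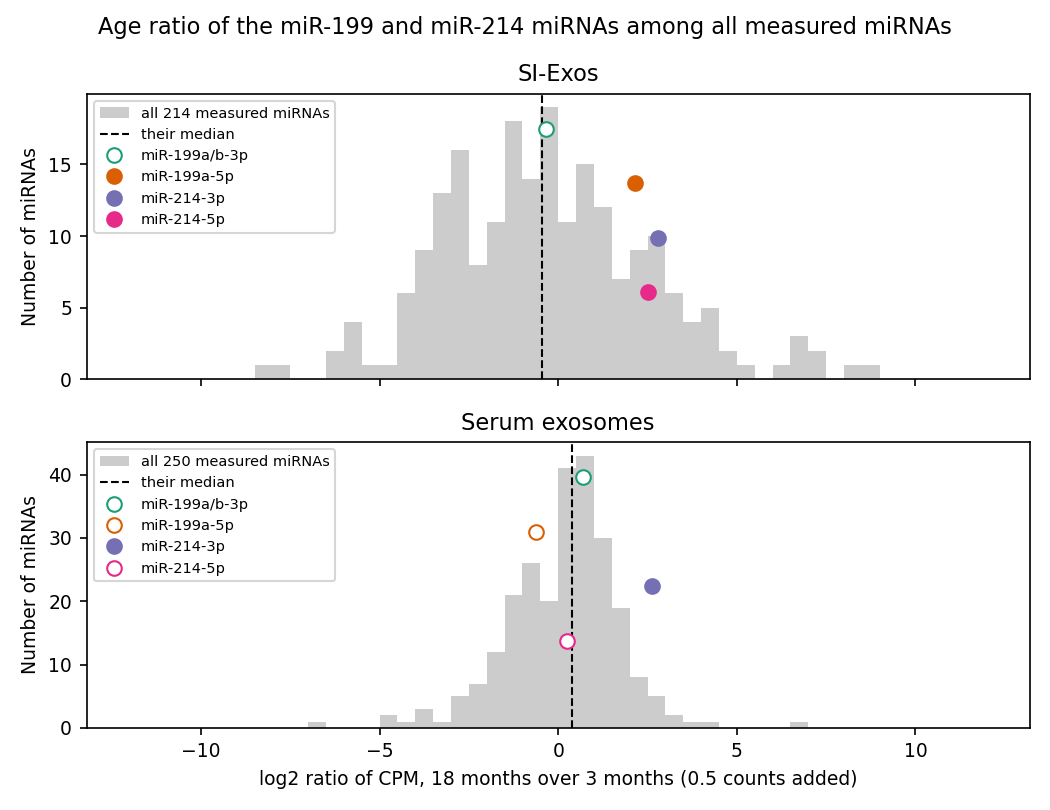
Distribution of the log2 ratio of 18 over 3 months for all measured miRNAs (grey bars, number of miRNAs; 214 in SI-Exos, 250 in serum), with the 4 member sequences as circles, filled where called (their height carries no value). The dashed line is the median of all, -0.45 in SI-Exos and 0.38 in serum; miR-214-3p is filled in both panels.

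Set side by side, miR-214-3p had ratios of 18 to 3 months of 7.22 in SI-Exos and 6.57 in serum, and the ratio of these was 1.10 (0.284 to 4.34). For miR-199a-5p the ratios were 4.42 and 0.641, and the ratio between sources was 6.90 (3.00 to 16.4). For miR-199a/b-3p they were 0.766 and 1.61, with 0.475 (0.254 to 0.849) between sources. The ratios of each miR-199 arm thus lay on opposite sides of 1 in the 2 sources, although the intervals of miR-199a/b-3p in SI-Exos and of miR-199a-5p in serum hold 1. For miR-214-5p the ratio between sources was 4.95 (0.957 to 26.7), an interval that holds 1. These comparisons depend on scaling. On RPM the ratio between sources was 0.439 (0.113 to 1.73) for miR-214-3p, from 2.60 in SI-Exos and 5.92 in serum. It was 2.75 (1.20 to 6.53) for miR-199a-5p, 0.189 (0.101 to 0.339) for miR-199a/b-3p and 1.97 (0.382 to 10.7) for miR-214-5p.

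The share of the 3p arm among the reads of a hairpin lies within 1 library and needs no scaling. For miR-199 (3p reads of both names, 5p reads of miR-199a-5p) it was 45.8% (37.5 to 54.3) in 3m-SI-Exos, 12.8% (7.63 to 19.7) in 18m-SI-Exos, 91.1% (86.5 to 94.5) in 3m-serum and 96.2% (93.5 to 98.0) in 18m-serum. The arms were about even in 3m-SI-Exos, the 5p arm prevailed in 18m-SI-Exos, and the 3p arm prevailed in both serum libraries. Since some 3p reads may come from Mir199b, the 7, 1, 1 and 0 reads of miR-199b-5p were added to the 5p arm, and the shares became 43.7%, 12.7%, 90.7% and 96.2%.

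For miR-199 the odds of the 3p arm were 5.77-fold higher (3.05 to 11.3) in 3m-SI-Exos than in 18m-SI-Exos, where 21.1% of 57 arm pairs were called in either direction. Between 3m-serum and 18m-serum the odds ratio was 0.397 (0.173 to 0.877), with 13.3% of 90 pairs called. In serum the odds were 12.1-fold (6.66 to 22.3) those of SI-Exos at 3 months, where 30.1% of 73 pairs were called, and 175-fold (76.7 to 409) at 18 months, where 29.3% of 58 were called. miR-199 was called in all 4 of these comparisons.

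For miR-214 the 3p share was 58.3% (27.7 to 84.8) in 3m-SI-Exos, 63.0% (42.4 to 80.6) in 18m-SI-Exos, 46.7% (21.3 to 73.4) in 3m-serum and 82.7% (69.7 to 91.8) in 18m-serum. These rest on 12, 27, 15 and 52 reads. Only the serum pair was called, with an odds ratio of 0.183 (0.0444 to 0.762) for 3 over 18 months. The SI-Exos pair (0.824, 0.169 to 4.27) and serum against SI-Exos at 3 months (0.625, 0.103 to 3.67) and 18 months (2.81, 0.847 to 9.28) were not called, and at this depth their intervals leave room for differences of more than 4-fold.

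**Figure D4:**
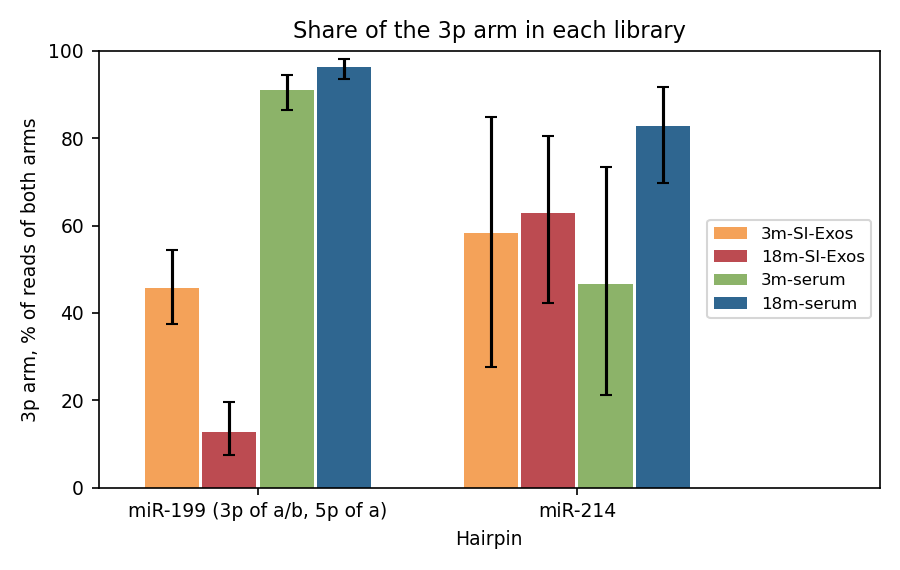
Share of the 3p arm (% of the reads of both arms) of miR-199 and miR-214 in each library, with exact 95% counting intervals. For miR-199 the share runs from 12.8% in 18m-SI-Exos to 96.2% in 18m-serum, and for miR-214 the intervals are wide (27.7 to 84.8% in 3m-SI-Exos).

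In CPM, SI-Exos and serum exosomes held the members at different levels, mainly through miR-199a-5p. On this scale miR-199a-5p was 15.3-fold (9.26 to 26.4) higher in SI-Exos at 3 months and 105-fold (58.1 to 210) higher at 18 months. On RPM it was still higher in SI-Exos, by 2.96-fold (1.79 to 5.11) and 8.15-fold (4.49 to 16.2). miR-199a/b-3p was not called between sources at 3 months (SI-Exos over serum 1.27, 0.946 to 1.68) or at 18 months (0.602, 0.346 to 0.980), and on RPM it was 4.07-fold and 21.5-fold higher in serum. At 18 months miR-214-3p was 4.31-fold (2.31 to 7.72) and miR-214-5p 12.1-fold (4.43 to 33.7) higher in SI-Exos, and on RPM their ratios were 0.333 and 0.937. At 3 months both had fewer than 10 reads in each library, and their ratios of 3.92 and 2.45 were not counted. Hence 1 of 2 measured members was called higher in SI-Exos at 3 months and 3 of 4 at 18 months, and 0 lower. At 18 months miR-214-5p reached 10 reads only in SI-Exos, where it was high, so that count is a description only. Of all measured miRNAs 43.8% were called higher and 28.1% lower in SI-Exos at 3 months (of 235), and 34.2% and 31.2% at 18 months (of 231). The summed members were 2.56-fold (2.08 to 3.14) and 4.69-fold (3.87 to 5.66) higher in SI-Exos in CPM, but 2.02-fold and 2.76-fold higher in serum on RPM, so the direction of the sum depends on the total.

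Other miRNAs of mesenchymal cells were listed beside the members, 12 in all, of which miR-143-5p had no row. In SI-Exos 8 were measured, 3 called higher and 1 lower at 18 months, with a median log2 ratio of 0.89. Of all 214 miRNAs measured there 29.4% were called higher and 32.7% lower, with a median of -0.45. The higher ones were miR-100-5p (431 and 723 reads, ratio 4.99, 4.42 to 5.63), miR-125b-5p (54 and 76 reads, 4.19, 2.91 to 6.05) and miR-195a-5p (21 and 18 reads, 2.55, 1.28 to 5.02). The lower one was miR-143-3p, a miRNA of smooth muscle, with 15740 and 2323 reads and a ratio of 0.439 (0.420 to 0.459). Its cluster partner miR-145a-5p, at 1.56 (1.20 to 2.01), stayed under the 2-fold limit. On DESeq2 size factors and on RPM all these SI-Exos ratios fall by 0.52 and 1.47 on the log2 scale.

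In serum 10 of the 12 were measured, 0 called higher and 4 lower at 18 months, with a median log2 ratio of -0.52. Of all 250 miRNAs measured there 25.6% were called higher and 18% lower, with a median of 0.38. The lower ones were miR-143-3p (34810 and 13133 reads, ratio 0.403), miR-125b-5p (228 and 80, 0.375), miR-145a-3p (42 and 14, 0.356) and miR-152-3p (46 and 11, 0.256). miR-145a-5p, at 1.71 (1.47 to 2.0), stayed under the 2-fold limit. The listed miRNAs thus had ratios on both sides of 1 in each source. In serum the ratio of miR-214-3p (7 and 43 reads) stood above those of all 10. Since miR-214-3p reached 10 reads only in the library where it was high, this place is a description only.

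Of the fibrosis-associated miRNAs, miR-21a-5p was not called in SI-Exos (1.37, 1.23 to 1.52) or in serum (1.13, 1.09 to 1.17). miR-29a-3p, of a family known to restrain collagen genes, was called higher at 18 months in SI-Exos (9 and 16 reads, 5.29, 2.2 to 13.6) and miR-29b-3p in serum (12 and 24 reads, 2.14, 1.03 to 4.69). In all 1 of 3 measured was called higher in SI-Exos and 1 of 4 in serum, and 0 lower, with median log2 ratios of 0.45 and 0.36. Of all measured miRNAs 29.4% were called higher and 32.7% lower in SI-Exos, and 25.6% and 18% in serum, with medians of -0.45 and 0.38. In SI-Exos miR-29a-3p reached the read limit only at 18 months, where it was high, so the count and median there are a description only.

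**Figure D5:**
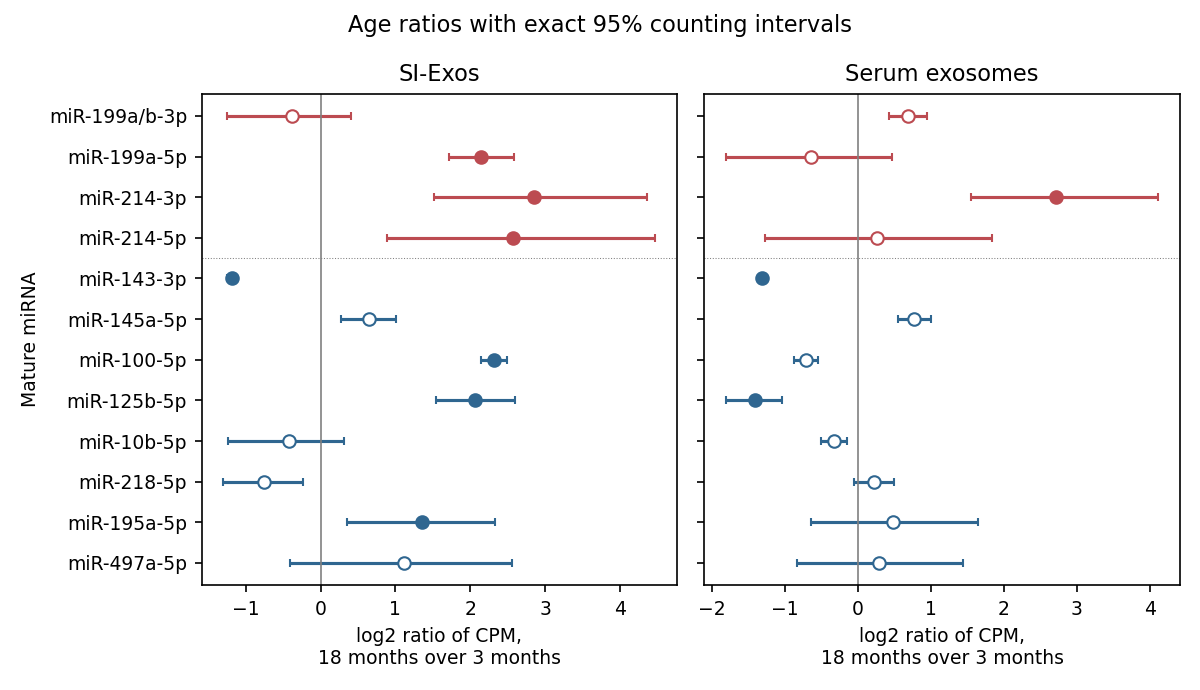
Log2 ratio of CPM of 18 over 3 months with exact 95% counting intervals for the members (red) and 8 other mesenchymal miRNAs (blue), filled where called (the interval of miR-143-3p is narrower than its point). Not drawn are miR-199b-5p and also miR-145a-3p and miR-152-3p, which were both called lower in serum. In serum the only filled red point is miR-214-3p, and miR-143-3p lies left of 0 in both sources.

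A ratio to miR-143-3p within a library needs no scaling either. Per 1000 reads of miR-143-3p there were 0.445 reads of miR-214-3p in 3m-SI-Exos, 7.32 in 18m-SI-Exos, 0.201 in 3m-serum and 3.27 in 18m-serum. This ratio was 16.5-fold (6.47 to 47.0) higher at 18 months in SI-Exos and 16.3-fold (7.26 to 42.9) in serum. For miR-199a-5p the values were 4.96, 49.9, 0.575 and 0.914 per 1000, 10.1-fold (7.47 to 13.6) higher at 18 months in SI-Exos and 1.59-fold (0.709 to 3.42) in serum. For miR-199a/b-3p they were 4.19, 7.32, 5.86 and 23.5, with folds of 1.75 (0.958 to 3.02) and 4.00 (3.34 to 4.81), and for miR-214-5p 0.318, 4.30, 0.230 and 0.685, with folds of 13.6 (4.21 to 50.6) and 2.98 (1.02 to 8.88). Part of each fold is the lower miR-143-3p level at 18 months. Against miR-145a-5p (181, 95, 273 and 437 reads) miR-214-3p was 4.63-fold (1.74 to 13.6) higher at 18 months in SI-Exos and 3.84-fold (1.68 to 10.2) in serum. Against the same reference miR-199a-5p had folds of 2.83 (1.90 to 4.22) and 0.375 (0.164 to 0.821), miR-199a/b-3p 0.491 (0.255 to 0.906) and 0.943 (0.742 to 1.20), and miR-214-5p 3.81 (1.14 to 14.6) and 0.703 (0.238 to 2.12). miR-214-3p was the only member whose interval lay above 1 in both sources with both references. It had 7 reads in each 3-month library and reached 10 reads only at 18 months. In serum miR-214-5p had 8 and 9 reads, too few for a like comparison, so this is a description only.

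Within the members, the reads of miR-199a/b-3p per read of miR-214-3p were 9.43 (4.33 to 24.4) in 3m-SI-Exos, 1 (0.480 to 2.08) in 18m-SI-Exos, 29.1 (13.9 to 73.4) in 3m-serum and 7.16 (5.19 to 10.1) in 18m-serum. The ratio was lower at 18 months in both sources, 0.106 (0.0325 to 0.329) and 0.246 (0.0917 to 0.567) of that at 3 months. For miR-199a-5p per read of miR-214-3p the ratios were 11.1, 6.82, 2.86 and 0.279, at 18 months 0.612 (0.205 to 1.65) of the 3-month ratio in SI-Exos and 0.0977 (0.0286 to 0.319) in serum. For miR-199a-5p per read of miR-214-5p the ratios were 15.6, 11.6, 2.50 and 1.33, at 18 months 0.744 (0.192 to 2.50) and 0.533 (0.137 to 2.06) of those at 3 months, both with intervals that hold 1. Reads of miR-199a/b-3p cannot be assigned to Mir199a, since Mir199b gives the same sequence.

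The labelled source was checked by marker miRNAs. Epithelial markers (8, among them miR-192-5p, miR-429-3p and the miR-200 family) summed to 267248 CPM in 3m-SI-Exos and 82603 CPM in 18m-SI-Exos, against 16850 and 6603 CPM in serum. In serum the sum followed miR-192-5p (15846 and 4132 CPM), the 1 of 8 called lower, while 3 were called higher and the median log2 ratio was 0.30. In SI-Exos 5 of the 8 were called lower at 18 months and 0 higher, and miR-200b-3p went from 381 reads to 0, which allows up to 42.0 CPM. Erythroid markers (miR-451a, miR-144-3p, miR-144-5p and miR-486a-5p) summed to 6305 and 37742 CPM in SI-Exos and 219662 and 538335 CPM in serum, with both measured ones called higher at 18 months in SI-Exos and 3 of 4 in serum. Myeloid and platelet markers summed to 37.7 and 322 CPM in SI-Exos and 666 and 3012 CPM in serum. In SI-Exos miR-223-3p, with 4 and 19 reads, was the only one of the 3 measured and was called higher, and 1 of 3 was called higher in serum. Endothelial markers summed to 7502 and 12571 CPM in SI-Exos, with 1 of 2 called higher, and 19764 and 25377 CPM in serum, with 0 called. Striated muscle markers summed to 4802 and 1514 CPM in SI-Exos, with 2 of 3 called higher and 1 lower, and to 6969 and 7273 CPM in serum, with 1 of 3 higher. The liver miRNA miR-122-5p was not called in SI-Exos (52 and 25 reads), and in serum it went from 384405 to 26509 CPM. In 3m-SI-Exos miR-144-5p and miR-142a-5p were at 0 reads. These marker lists did not all shift in the same direction, and their part in the ratios of the members was not tested. The listed mesenchymal miRNAs summed to 78727 and 46291 CPM in SI-Exos and 44642 and 19156 CPM in serum, so their sum was lower at 18 months in both sources, where miR-214-3p was higher. Most of that sum was miR-143-3p.

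Profiles nearest to those of the members were sought among 147 known miRNAs measured in both sources, by the Euclidean distance of centred log2 CPM over the 4 libraries. Nearest to miR-199a/b-3p were miR-652-3p (distance 0.600), miR-542-5p (0.676), miR-191-5p (0.785), miR-21a-5p (0.792) and miR-181c-5p (0.905). miR-652-3p stood at 2356, 1696, 2859 and 3933 CPM in 3m-SI-Exos, 18m-SI-Exos, 3m-serum and 18m-serum. Nearest to miR-214-3p were miR-146b-5p (1.02), miR-125a-5p (1.33), miR-30b-5p (1.87), miR-92b-3p (1.96) and miR-340-5p (2.02). miR-146b-5p stood at 42.4, 168, 15.6 and 48.8 CPM, higher at 18 months in both sources as miR-214-3p was. None of these 10 was another member, but miR-214-5p could not appear. With 8 and 9 reads in serum it was under the 10-read limit and was not among the 147. With 4 libraries the distances are a description.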

How the data were processed

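Small RNA of exosomes was sequenced in 4 libraries (SI-Exos and serum exosomes at 3 and 18 months, 1 each). Per the labels, RNA was isolated with the miRNeasy Serum/Plasma Kit. The authors' processing notes name Bowtie2 2.2.9 and GRCm38. For each mature miRNA the authors deposited a raw read count and RPM, in which the reads are divided by a library total above the miRNA sum. The RPM gave back the deposited count for all 373 and 611 miRNAs. How a read that matches several names was assigned was not stated by the labels or the paper. The deposited log2 ratios, p-values and FDR were the authors' own comparisons and were not used.

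Counts were scaled to CPM of each library's miRNA sum, with 0.5 counts added for log2 ratios. Counts have exact Poisson intervals, shares Clopper-Pearson intervals, ratios intervals from the conditional binomial of the 2 counts, and arm odds exact conditional intervals, all at 95%. A count of 0 allows up to 3 reads. The rules were tested on simulated counts. Members, lists and alternatives were chosen with earlier results of these data known. The miRNAs named were every member, the listed mesenchymal, fibrosis and marker miRNAs, those sharing a member's seed, and the 5 profiles nearest to miR-199a/b-3p and to miR-214-3p. Alternatives were TMM factors (edgeR 4.0.16), DESeq2 1.42.0 size factors, the RPM, totals without the 5 most abundant miRNAs, known miRNAs alone, at least 1 or 50 reads, ratios of 1.5 or 4, no interval rule, rows as deposited and miR-145a-5p as reference. No count test was run with 1 library per group. Adding miR-199b-5p to the 5p arm, leaving miR-199a-5p out of the sum and rescaling the ratios between sources were chosen after seeing the data. Positions are from GENCODE vM21, and sequences from RefSeq and the deposited tables. Python 3.11.15 (pandas 2.3.3, numpy 2.4.6, scipy 1.17.1, matplotlib 3.10.9) and R 4.3.3 were used.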

Additional observations from a re-analysis of the deposited data

Results flagged for a closer look

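For miR-199a/b-3p and miR-199a-5p the ratios of 18 to 3 months lay on opposite sides of 1 in SI-Exos and serum. The ratio in SI-Exos was 0.475 (0.254 to 0.849) of that in serum for miR-199a/b-3p and 6.90 (3.00 to 16.4) of it for miR-199a-5p. The intervals of the ratios of miR-199a/b-3p in SI-Exos (0.421 to 1.32) and of miR-199a-5p in serum (0.286 to 1.38) hold 1. On the authors' RPM the values between sources were 0.189 (0.101 to 0.339) and 2.75 (1.20 to 6.53), and without the 5 most abundant miRNAs that of miR-199a/b-3p was 0.691 (0.370 to 1.24). With 1 library per group the difference was not tested against replicates.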

How the results depend on the processing

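No paired analysis was possible because each source and age had 1 library. Of the SI-Exos members, 1 was called higher and 1 lower on the authors' RPM, and 1 of the 2 measured was called higher with at least 50 reads. Of the serum members, 0 of the 1 measured was called with at least 50 reads, 2 were called higher with a ratio of 1.5, and 2 higher and 1 lower with rows as deposited, where miR-199a-3p and miR-199b-3p stand apart. The summed SI-Exos ratio of 3.05 was 2.13 with DESeq2, 1.10 on RPM, 4.73 without miR-199a/b-3p and 1.68 without miR-199a-5p. Its size thus depends on the total used and on the sequences summed. The summed serum ratio of 1.66 was 1.27 without the 5 most abundant miRNAs. The summed ratio of serum to SI-Exos, 0.391 at 3 months and 0.213 at 18 months, turned to 2.02 and 2.76 on RPM and was 0.885 and 0.332 without the 5 most abundant. The 3p share of miR-199 in 18m-serum was 36.8% with the miR-199a-3p row alone. With miR-145a-5p in place of miR-143-3p, the folds with age in SI-Exos and serum were 0.491 and 0.943 for miR-199a/b-3p, 2.83 and 0.375 for miR-199a-5p, 4.63 and 3.84 for miR-214-3p, and 3.81 and 0.703 for miR-214-5p. Those of miR-199a/b-3p in both sources and of miR-199a-5p and miR-214-5p in serum crossed to below 1.

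All SI-Exos miRNAs split into 63 higher and 70 lower at 18 months, 50 and 100 with DESeq2, 31 and 131 on RPM, and 30 and 48 with at least 50 reads. The serum split of 64 and 45 was 48 and 52 with TMM, 37 and 66 without the 5 most abundant, 18 and 21 with a ratio of 4, and 38 and 27 with at least 50 reads. Scaling shifted every log2 ratio in SI-Exos by -0.07 (TMM), -0.52 (DESeq2), -1.47 (RPM), 0.15 (without the 5 most abundant) and 0.13 (known miRNAs), and in serum by -0.21, -0.12, -0.15, -0.39 and -0.00. Of 88 recomputed ratios 79 stayed on their side of 1. Of the 9 that crossed it, 4 had a reported interval without 1 and 5 one that holds 1. Depth limits miR-214-5p most, with 5 to 10 reads per library.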

Other observations

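1 other pair of names with the same mature sequence, chosen after its values were seen, also changed name between the serum libraries. let-7a-1-3p held 0 reads in 3m-serum and 51 in 18m-serum, and let-7c-2-3p held 169 and 1. The reads of this pair were not added. Among all 250 measured serum miRNAs let-7a-1-3p therefore counts as higher and let-7c-2-3p as lower. In SI-Exos let-7a-1-3p held 44 reads at 3 months and 10 at 18 months, and let-7c-2-3p held 3 and 0.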
